A study of Mus musculus with 6 samples.

Results

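Cytochrome P450 genes, named Cyp with a family number, a subfamily letter and a member number, were compared between cells of the mouse olfactory epithelium sorted as ICAM1-positive or ICAM1-negative. Members were the probe sets whose only gene symbol in the platform table has this form, together with Cyp51. There were 96 such probe sets for 71 genes, out of 45101 probe sets and 18193 genes on the array. Of these, 75 probe sets for 58 genes passed the filter on low values, which asked for 3 or more of the 6 arrays with an intensity over 16, and the other 13 genes were not tested. A further 3 probe sets that list several P450 genes of this form were kept apart, because their signal cannot be given to 1 gene.

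The samples were an ICAM1-positive and an ICAM1-negative fraction from each of 3 litters of CD1 mice, each fraction on its own array. ICAM1 (CD54) is an adhesion protein of the cell surface, and both fractions were collected from dissociated olfactory epithelium by flow cytometry with a fluorescent antibody to it. The litters were of postnatal days 21, 22 and 24, so litter and age cannot be told apart, and each fraction is a mixture of cell types taken from the mice of a litter. Cells of the ICAM1-positive fraction include horizontal basal cells, the reserve stem cells of this epithelium, and ICAM1 is also carried by immune and endothelial cells. All values below are deposited linear intensities, log2 differences are those of ICAM1-positive cells over ICAM1-negative cells, and errors are SD over 3 arrays for intensities and the standard error of the fit for log2 differences. A gene is called higher or lower when its limma p-value is under 0.05 after Benjamini-Hochberg adjustment for all 38694 kept probe sets. In such bulk samples, fewer cells of a type and less RNA per cell cannot be told apart.

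P450 enzymes are heme proteins that insert an oxygen atom into their substrate. Most sit in the endoplasmic reticulum and draw electrons from P450 reductase and cytochrome b5, while a smaller group in mitochondria draws them from ferredoxin. Families 1 to 4 act on foreign compounds and fatty acids, and other families make or break down retinoic acid, vitamin D, sterols, bile acids and steroid hormones. The olfactory mucosa is known for its high content of xenobiotic P450 enzymes, which are found mainly in sustentacular cells and Bowman glands.

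The fractions separated as labelled. Icam1 had intensities of 7246.5, 6817 and 6857 in ICAM1-positive cells, against 13, 16.1 and 33.2 in ICAM1-negative cells, as the titles label the samples, while the descriptions in free text have the names swapped. All 5 horizontal basal cell markers were higher, with summed intensities of 73297 to 76860 in ICAM1-positive cells and 188.6 to 630.8 in ICAM1-negative cells. All 8 macrophage markers were higher as well (16524 to 21442 against 951.7 to 1145.2), and all 6 markers of olfactory sensory neurons were lower (2941.3 to 5381.6 against 49989 to 57620). Of 6 sustentacular markers that are not P450 genes, 4 were higher and 0 lower (59758 to 64856 against 21170 to 33815). Sec14l3 and Gpx6 were those that did not pass. Of 5 Bowman gland markers, 3 were higher and 0 lower (33065 to 36935 against 11929 to 19112). Most of that sum came from Bpifa1 (28304 to 31882 against 11106 to 18492), and Muc5b did not pass (0.34 ± 0.35). The dim Bowman gland gene Obp2a did not pass (-2.23 ± 1.17, adjusted p = 0.198) but was lower with litter as a block (0.0473). None of 5 vascular endothelial markers passed by limma in either direction (217.5 to 281.6 against 224.5 to 250.1). All 5 lay under the median intensity of the array on every array, so their sums do not show whether endothelial cells were present. Beside these counts, 20.6% of all 16399 genes were higher and 20.8% lower. No marker of these lists was at 0 on any array, which is not a sign of detection. The part of these cell types in the P450 differences was not tested.

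Single P450 genes of several families were higher in ICAM1-positive cells, and most members did not pass. Those higher were Cyp7b1, Cyp39a1 and Cyp46a1, which act on cholesterol or oxysterols, the retinoic acid hydroxylase Cyp26a1, whose call was lost with litter as a block (adjusted p = 0.0609), and Cyp2f2, Cyp2j9, Cyp2d22, Cyp3a13 and Cyp4b1 of families 2 to 4. Cyp2c29 and Cyp4a14 were also called higher, near background. The olfactory genes Cyp2g1 and Cyp1a2, the sterol genes Cyp51 and Cyp27a1 and the retinoic acid gene Cyp26b1 did not pass. Those called lower were Cyp2u1, Cyp4v3, Cyp2c23, Cyp2c65, Cyp11a1 and Cyp27b1, the last 4 of them dim in both fractions or barely above the array median.

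In all, 11 of the 58 P450 genes were higher (19%) and 6 were lower (10.3%), beside 20.6% of all 16399 genes higher and 20.8% lower. By probe set, 14 of 75 were higher and 9 lower, beside 16.9% and 18% of all probe sets. The share of higher P450 genes was thus near that of all genes. The median log2 difference was 0.13 over the P450 genes and -0.06 over all genes. The arrays of the fractions did not overlap for 15 P450 genes in the higher and 9 in the lower direction, beside 27.8% and 30.1% of all genes. Many members were dim, since 30 of the 58 lay under the array's median intensity (87.9 to 102.8) on all 6 arrays. Without detection calls, a difference between values under that median has no exact fold. With intensities under the median raised to it, 11 P450 genes were higher and 2 lower, beside 21.7% and 23.2% of all genes. Of the 17 genes called, 8 kept their call and direction under every alternative run, 7 higher and 1 lower. These were Cyp7b1, Cyp39a1, Cyp46a1, Cyp3a13, Cyp2j9, Cyp2d22, Cyp4b1 and, in the lower direction, Cyp2u1.

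**Figure D1:**
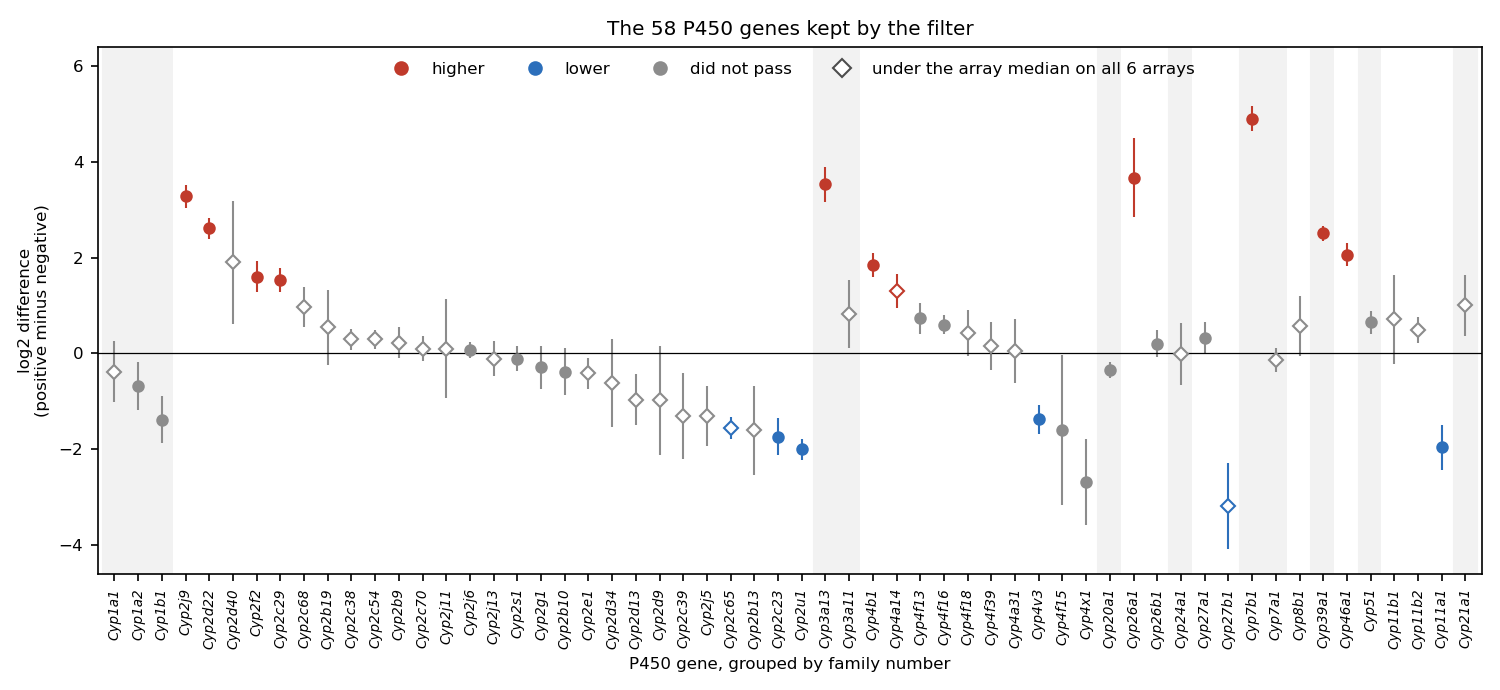
Log2 difference (ICAM1-positive minus ICAM1-negative, with the standard error) of the 58 P450 genes kept, grouped by family number from the xenobiotic families at the left to the steroid hormone families at the right. Red and blue mark genes called higher and lower, and open diamonds mark genes under the array median on all 6 arrays. Cyp7b1 has the greatest positive difference, 4.90, and the only gene past -3, Cyp27b1, is an open diamond.

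Family 1 holds the enzymes induced through the aryl hydrocarbon receptor, and 0 of its 3 genes passed in either direction. Cyp1a2, which oxidises aromatic amines, had intensities of 289.5, 670.8 and 796.5 in ICAM1-positive cells, against 579.5, 810.7 and 1387 in ICAM1-negative cells. It was the lower in ICAM1-positive cells within every litter, but the fractions overlapped and the difference did not pass (-0.69 ± 0.50, adjusted p = 0.342). Cyp1b1, which also acts on estradiol, had 25.4, 21 and 35.7, against 137.4, 62.2 and 39.7 in ICAM1-negative cells. Its fractions did not overlap, yet it did not pass (-1.39 ± 0.49, adjusted p = 0.0768), and it passed only when ICAM1-negative array 3 was left out (-1.79, adjusted p = 0.039). With intensities under the array median raised to it, this brightest probe set stood at -0.14 (adjusted p = 0.773). Of its other probe sets, which did not pass, 1 was lower with litter as a block (-0.77, adjusted p = 0.0303). The remaining one went the other way in every litter (1.25 ± 0.83, adjusted p = 0.301). Both of these dimmer probe sets lay under the array median on every array, so the direction for Cyp1b1 is not settled. Cyp1a1, the classical target of this receptor, was under the array median on every array (-0.38 ± 0.64). The bases upstream of the start sites of these genes are shown because the family shares this receptor, whose core site is GCGTG. Each sequence is the 250 bases before the start site, from RefSeq on GRCm38.p6, 5′ to 3′ on the gene's strand, with GCGTG on either strand in capitals.
Cyp1a1 (chr9:57697363-57697612, plus strand): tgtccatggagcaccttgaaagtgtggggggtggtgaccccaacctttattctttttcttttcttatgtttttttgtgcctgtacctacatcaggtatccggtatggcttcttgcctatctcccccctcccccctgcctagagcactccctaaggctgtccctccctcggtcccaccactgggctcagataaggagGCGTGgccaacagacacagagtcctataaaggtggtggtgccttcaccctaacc
Cyp1a2 (chr9:57683656-57683905, minus strand): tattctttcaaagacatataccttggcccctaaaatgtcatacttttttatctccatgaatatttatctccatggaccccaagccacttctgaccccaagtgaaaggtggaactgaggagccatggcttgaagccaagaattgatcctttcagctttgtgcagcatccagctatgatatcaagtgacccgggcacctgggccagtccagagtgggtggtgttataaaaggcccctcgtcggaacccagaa
Cyp1b1 (chr17:79715062-79715311, minus strand): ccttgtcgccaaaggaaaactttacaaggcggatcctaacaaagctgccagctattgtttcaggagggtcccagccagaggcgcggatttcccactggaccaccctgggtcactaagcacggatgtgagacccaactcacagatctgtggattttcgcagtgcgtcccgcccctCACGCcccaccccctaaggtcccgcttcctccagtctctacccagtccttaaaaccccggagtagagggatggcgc
Cyp1a1 held the core on the gene's strand and Cyp1b1 on the other strand, and Cyp1a2 held none in this window. The core is common, being found in 12 of the 41 P450 genes with a window and in 28.2% of 32851 windows of this length.

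Family 2 is the greatest in number and covers most of the known olfactory P450 genes. Of its 35 genes on the array 27 were tested, of which 4 were higher and 3 lower, or 14.8% and 11.1%, beside 20.6% and 20.8% of all genes, with a median log2 difference of -0.11. Cyp2g1, a P450 known for its restriction to olfactory mucosa, had 5055, 9092 and 14356 in ICAM1-positive cells, against 9382, 8394 and 15350 in ICAM1-negative cells. The fractions overlapped, with ICAM1-positive array 1 under every ICAM1-negative array, and the litters differed by -0.89, 0.12 and -0.10 on the log2 scale. The probe set shared by Cyp2a5, the coumarin hydroxylase, and Cyp2a4, a steroid hydroxylase, had 3221, 8157 and 11591, against 7775, 5930 and 12687 in ICAM1-negative cells (-0.31 ± 0.54, adjusted p = 0.702). It is described although it cannot be given to either gene, a choice made after its values were seen. On these probe sets the arrays of a fraction spread more widely than the fractions differed, and the lowest value lay on ICAM1-positive array 1, as it did for Cyp1a2. Sec14l3, a lipid transfer gene of sustentacular cells, was also lowest there, with 4867, 10813 and 11273 in ICAM1-positive cells, against 7549, 10274 and 13724 in ICAM1-negative cells. The other sustentacular markers tested had their lowest value on an ICAM1-negative array.

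Cyp2f2, which activates naphthalene in airway club cells, differed from these. It had 21674, 20237 and 23690 in ICAM1-positive cells, against 5327, 6101 and 11529 in ICAM1-negative cells. The fractions did not overlap, and Cyp2f2 was higher in ICAM1-positive cells (1.60 ± 0.32, adjusted p = 0.012). It lost its call without litter 1 (1.38, adjusted p = 0.0988) and without litter 2 (1.53, adjusted p = 0.0916). The sustentacular carbonyl reductase gene Cbr2 rose by 1.42 ± 0.29 on the same arrays, with 27391, 22351 and 25671 against 6894, 8665 and 13852 in ICAM1-negative cells, and the cytoskeletal gene Ermn by 2.83 ± 0.19. Of the same marker list, Krt18 and Krt8 were higher as well, while Gpx6 (0.39 ± 0.22) and Sec14l3 (-0.28 ± 0.41) did not pass.

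**Figure D2:**
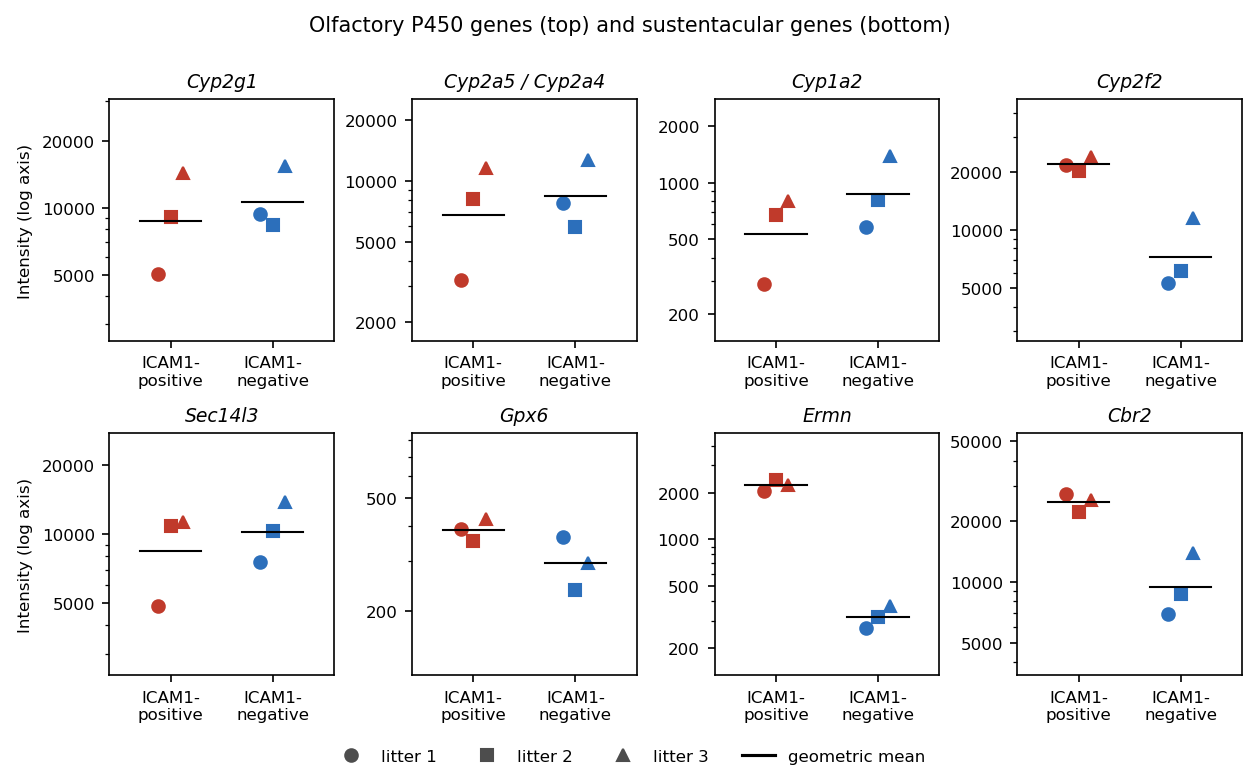
Intensity on each array (log axis) of Cyp2g1, the probe set shared by Cyp2a5 and Cyp2a4, Cyp1a2 and Cyp2f2 in the top row, and of the sustentacular genes Sec14l3, Gpx6, Ermn and Cbr2 in the bottom row, with ICAM1-positive arrays at the left of each panel. Symbols mark litters and lines the geometric means; Cyp2f2, Ermn and Cbr2 separate the fractions, and Cyp2g1, Cyp2a5/Cyp2a4, Cyp1a2 and Sec14l3 have their lowest value on ICAM1-positive array 1.

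Of the arachidonic acid epoxygenases of subfamily 2j, Cyp2j9 had 516.2, 724.4 and 499.6 in ICAM1-positive cells, against 54.4, 51.8 and 72.5 in ICAM1-negative cells. Its ICAM1-negative arrays all lay under the array median, so it was at least 5.92-fold higher (3.28 ± 0.24, adjusted p = 0.000336). Its neighbour Cyp2j6 gave different answers by probe set. The brighter one had 319.4, 351.2 and 337.4, against 297.9, 341.4 and 321.2 in ICAM1-negative cells, and did not pass (0.07 ± 0.16). The other one had 316.8, 372.3 and 389.3, against 164.7, 169.5 and 218.9, and was higher (0.97 ± 0.20, adjusted p = 0.0124), and the average of both was higher as well (0.52, adjusted p = 0.0375). The remaining 3 genes of this subfamily lay under the array median on every array and did not pass.

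Cyp2d22, the mouse relative of the human drug-metabolising CYP2D enzyme, had 242.9, 295.3 and 385.5 in ICAM1-positive cells, against 53.4, 45.5 and 50.5 in ICAM1-negative cells. It was at least 3.13-fold higher (2.61 ± 0.22, adjusted p = 0.00053), and its second probe set was called higher too (3.50 ± 0.63). It was the only one called among the 5 genes tested in subfamily 2d, and the others lay under the array median on every array. Cyp2u1, a hydroxylase of long-chain fatty acids, had 41.2, 29 and 44.8 in ICAM1-positive cells, against 152.7, 138 and 162 in ICAM1-negative cells. It was at least 1.56-fold lower (-2.0 ± 0.22, adjusted p = 0.00129), and its second probe set was called lower too (-3.6 ± 0.63, adjusted p = 0.00686). That second probe set lost its call with intensities under the array median raised to it (-0.38, adjusted p = 0.0919).

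The calls in subfamily 2c rested on dim values. Cyp2c29 had 63.5, 96.4 and 101.7 in ICAM1-positive cells, against 31.3, 33.2 and 24.9 in ICAM1-negative cells (1.53 ± 0.25, adjusted p = 0.0056; 1.28, adjusted p = 0.0688, without litter 3). Cyp2c65, an intestinal arachidonic acid enzyme, had 18.5, 19.2 and 14.3, against 62.3, 45.6 and 44.6 in ICAM1-negative cells (-1.55 ± 0.23, adjusted p = 0.00339). Cyp2c23, a renal epoxygenase gene, had 30.8, 19.3 and 39.4, against 113.3, 122.8 and 63.3 in ICAM1-negative cells (-1.74 ± 0.38, adjusted p = 0.0158). With dim intensities lifted to the array median, all 3 calls were lost, at adjusted p = 0.996 for Cyp2c29 and Cyp2c65 and 0.54 for Cyp2c23. Cyp2c23 also lost its call with litter as a block (adjusted p = 0.0598), without litter 1 (0.12) or 2 (0.0927) and without ICAM1-negative array 1 (0.0555) or 2 (0.0517).

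Neither Cyp2s1 nor Cyp2e1 passed, and Cyp2b10 gave different answers by probe set. Cyp2s1, an epithelial P450, had 634.9, 428.8 and 664.1 in ICAM1-positive cells, against 553, 544.2 and 753.5 in ICAM1-negative cells (-0.11 ± 0.26). Cyp2e1, the ethanol-inducible P450, was under the array median on every array, with 18.7, 32.6 and 28.5, against 39.6, 25 and 42 in ICAM1-negative cells (-0.42 ± 0.32). Cyp2b10, the phenobarbital-inducible P450, had 3 kept probe sets. The brightest had 87.1, 180.2 and 233.9, against 120.1, 215.9 and 314.2 in ICAM1-negative cells, and did not pass (-0.38 ± 0.50). The other 2 were called lower, one with 17.5, 33.3 and 22.3 against 131.9, 139.3 and 209.5 (-2.74 ± 0.32, adjusted p = 0.00148) and one with 76.3, 62.8 and 71.9 against 148, 106.1 and 214 (-1.10 ± 0.29, adjusted p = 0.0315). On both, every ICAM1-positive array lay under the array median. With dim intensities lifted, the former stood at -0.7 (adjusted p = 0.0209) and the latter lost its call (-0.63, adjusted p = 0.0805). Cyp2b10 therefore has no single answer here, and genes of subfamilies with near-identical copies may share signal between probe sets. Of the 13 P450 genes with several kept probe sets, 10 had the same call on all of them, and the exceptions were Cyp2b10, Cyp2j6 and Cyp4v3.

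In the clusters of family 2 on chromosomes 7 and 4, few genes were called, and many of the others were dim. By the RefSeq gene order, the cluster on chromosome 7 runs from Cyp2s1 through Cyp2b10, Cyp2b13, Cyp2b9, Cyp2b19 and Cyp2g1 to Cyp2f2, and Cyp2g1 lies next to Cyp2a5. Of these 7 tested genes only Cyp2f2 was called by its representative probe set, while Cyp2b10 had other probe sets called lower. Cyp2b13, Cyp2b9 and Cyp2b19 lay under the array median on every array. In the cluster on chromosome 4, Cyp2j9 stands between Cyp2j6 and Cyp2j5. Of the 5 tested genes there, only Cyp2j9 was called by its representative probe set, while Cyp2j6 had another probe set called higher. Over all genes, 20.6% were higher and 20.8% lower. Cyp2j5, a kidney-enriched epoxygenase, lay under the array median on every array (-1.31 ± 0.62), as did Cyp2j13 and Cyp2j11. Whether neighbours differ together cannot be read from genes this dim.

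**Figure D3:**
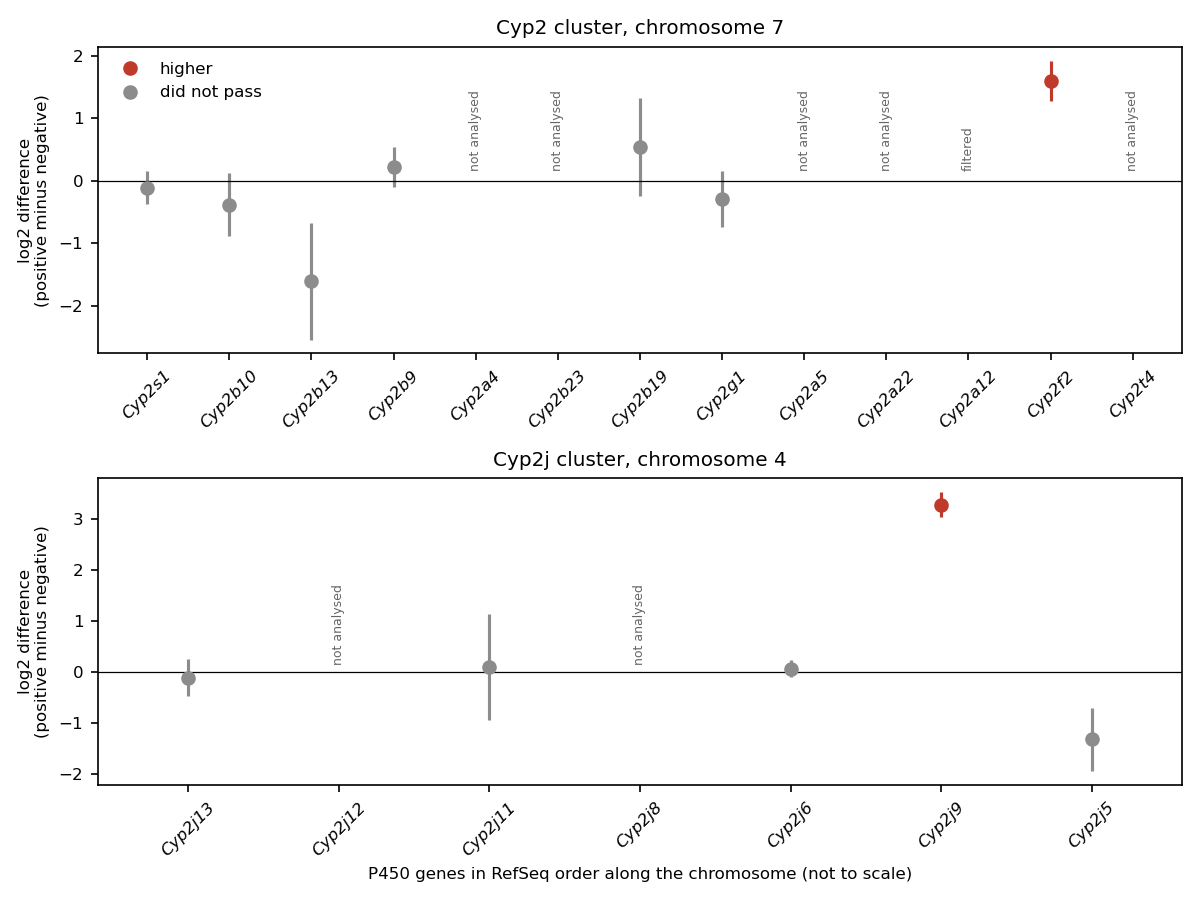
Log2 difference (ICAM1-positive minus ICAM1-negative, with the standard error) of P450 genes in RefSeq order along chromosome 7 (top) and chromosome 4 (bottom), spaced evenly and not to scale. Cyp2f2 at 1.60 and Cyp2j9 at 3.28 are the genes called by their representative probe set. Genes marked as filtered or not analysed have no value.

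In family 3, the main drug-metabolising family of the liver, 2 of 5 genes were tested. Cyp3a13 had 1209, 2186 and 1170 in ICAM1-positive cells, against 90.6, 125.6 and 174.7 in ICAM1-negative cells. The lowest ICAM1-positive array stood several-fold above the highest ICAM1-negative array, and Cyp3a13 was higher (3.53 ± 0.36, adjusted p = 0.000922). Cyp3a11, a major liver P450, lay under the array median on every array (0.83 ± 0.71).

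Family 4 hydroxylates the ends of fatty acids and leukotrienes. Of 11 genes 10 were tested, of which 2 were higher and 1 lower, or 20% and 10%, beside 20.6% and 20.8% of all genes, with a median log2 difference of 0.29. Cyp4b1, which also activates the lung toxin ipomeanol, had 1873, 1616 and 1523 in ICAM1-positive cells, against 349.8, 470.5 and 607.1 in ICAM1-negative cells. The fractions did not overlap, and Cyp4b1 was higher (1.84 ± 0.25, adjusted p = 0.00266). Cyp4v3, the mouse counterpart of a human gene mutated in a retinal dystrophy, had 735, 1325 and 1340, against 2504, 2559 and 3558 in ICAM1-negative cells. It was lower (-1.38 ± 0.31, adjusted p = 0.0177). Its dimmer probe set did not pass (-1.15 ± 0.37, adjusted p = 0.0598) but was lower with dim intensities lifted (0.0243). The call of the brighter probe set was lost without litter 1 (adjusted p = 0.0684), 2 (0.0711) or 3 (0.0889) and without ICAM1-negative array 3 (0.0557).

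Cyp4a14, a fatty acid hydroxylase gene of liver and kidney, had 24, 21.5 and 28.4 in ICAM1-positive cells, against 9.6, 6.4 and 15.9 in ICAM1-negative cells (1.30 ± 0.36, adjusted p = 0.0356). All of these values lie far under the array median, and the call was lost with dim intensities lifted, with an intensity trend in the fit (adjusted p = 0.185), without litter 1 (0.189) or 2 (0.0998), and without any single array other than ICAM1-negative array 3 (0.0669 to 0.105). Cyp4x1, a brain P450, had 3.8, 31.9 and 34 against 77.6, 102.8 and 139.3 in ICAM1-negative cells, and missed the threshold (-2.69 ± 0.89, adjusted p = 0.0626). With dim intensities lifted, Cyp4x1 stood at -0.24 (adjusted p = 0.33). Of the 5 genes of subfamily 4f tested, which act on leukotrienes, 0 passed by limma. Cyp4f16 came closest (0.60 ± 0.20, adjusted p = 0.0652) and was higher with dim intensities lifted (adjusted p = 0.0168). Its other kept probe set, under the array median on every array, did not pass (1.18 ± 0.44, adjusted p = 0.0891) but was higher with litter as a block (0.0188).

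Family 26 breaks down retinoic acid, the vitamin A derivative that acts through nuclear receptors, and its members differed. Cyp26a1 had 392.2, 221.8 and 178.8 in ICAM1-positive cells, against 6.7, 17.6 and 63.5 in ICAM1-negative cells. Every ICAM1-positive array was above the array median and every ICAM1-negative array under it, which makes it at least 2.59-fold higher (3.67 ± 0.83, adjusted p = 0.0182). The litters varied widely, at 5.87, 3.66 and 1.49 on the log2 scale, and the call was lost with litter as a block (adjusted p = 0.0609), without litter 1 (2.57, adjusted p = 0.0828) or 2 (0.128), without ICAM1-positive array 1 (0.0588) and without ICAM1-negative array 2 (0.0576). Cyp26b1 had 281.8, 157 and 260.8, against 195.4, 168.7 and 229.3 in ICAM1-negative cells, and the difference of 0.20 ± 0.28 missed the threshold (adjusted p = 0.628). The difference between the responses of these genes was not tested. The bases upstream of both start sites are shown because retinoic acid receptors bind a direct repeat of a short site, and Cyp26a1 is known to be induced by retinoic acid. Capitals mark a match, on either strand, to NGNTCA (with A or G at the first N and G or T at the second), repeated after a spacer of 5 or 2 bases.
Cyp26a1 (chr19:37697558-37697807, plus strand): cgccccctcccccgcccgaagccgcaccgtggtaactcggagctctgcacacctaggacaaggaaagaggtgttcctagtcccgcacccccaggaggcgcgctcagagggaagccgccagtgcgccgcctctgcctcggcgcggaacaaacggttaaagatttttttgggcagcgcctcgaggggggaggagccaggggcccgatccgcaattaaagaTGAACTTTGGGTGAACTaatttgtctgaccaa
Cyp26b1 (chr6:84593811-84594060, minus strand): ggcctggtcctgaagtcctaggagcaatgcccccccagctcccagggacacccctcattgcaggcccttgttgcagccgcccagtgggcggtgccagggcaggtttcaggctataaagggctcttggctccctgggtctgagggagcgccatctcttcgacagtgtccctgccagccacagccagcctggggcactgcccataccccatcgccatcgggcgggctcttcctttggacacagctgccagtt
Cyp26a1 held a direct repeat with a spacer of 5 bases on the opposite strand, 16 to 32 bases before the start site, and Cyp26b1 held neither repeat in this window. Of 41 P450 genes with a window, Cyp26a1 was the only one with this repeat, which 0.0883% of all 32851 windows held, and 0 held the repeat with a spacer of 2 bases.

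Families 24 and 27 act on vitamin D and on side chains of sterols. Cyp27b1, which makes the active form of vitamin D, had 1.4, 13.2 and 1.5 in ICAM1-positive cells, against 22.5, 37 and 25.5 in ICAM1-negative cells (-3.19 ± 0.90, adjusted p = 0.0386). Both fractions lay far under the array median, and the call was lost with dim intensities lifted (adjusted p = 0.996), with no filter (0.0502), with an intensity trend (0.061), without litter 1 (0.183) or 3 (0.2), and without any single array other than ICAM1-positive array 2 (0.0855 to 0.108). Cyp27a1, a mitochondrial sterol hydroxylase also found in macrophages, averaged 243.8 ± 79.4 in ICAM1-positive cells and 192.1 ± 54.2 in ICAM1-negative cells and did not pass (0.33 ± 0.32). Cyp24a1, which inactivates vitamin D, lay under the array median on every array.

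Families 7, 39 and 46 act on cholesterol and its oxidised forms, the oxysterols, which Cyp27a1 also makes, and each had 1 gene that was higher in ICAM1-positive cells. Cyp7b1, which hydroxylates oxysterols and some steroids, had 691.6, 1150 and 892.8 in ICAM1-positive cells, against 27.7, 26.5 and 36 in ICAM1-negative cells. It was at least 9.24-fold higher (4.90 ± 0.26, adjusted p = 0.000175), and a second probe set was called higher by 4.93 ± 0.66. Cyp39a1, which acts on the oxysterol that Cyp46a1 makes, had 2261, 2389 and 2067, against 378.7, 386.9 and 413.9 in ICAM1-negative cells. The arrays of each fraction lay close together, and the difference was 2.51 ± 0.16 (adjusted p = 0.000244). Cyp46a1, the cholesterol hydroxylase best known from brain neurons, had 551, 346.3 and 464.9, against 89.7, 121.2 and 111.9 in ICAM1-negative cells (2.06 ± 0.24, adjusted p = 0.00157). These 3 genes were higher in every litter, by at least 4.63 for Cyp7b1, 2.32 for Cyp39a1 and 1.51 for Cyp46a1 on the log2 scale.

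Of the P450 genes of bile acid synthesis, Cyp7a1 and Cyp8b1 were near background. Cyp7a1, the first enzyme of that pathway in liver, and Cyp8b1, which sets its product's hydroxylation, lay under the array median on every array and did not pass (-0.14 ± 0.25 and 0.57 ± 0.62). Cyp51, the lanosterol demethylase of cholesterol synthesis that all cells use, had 1995, 1880 and 1372 in ICAM1-positive cells, against 1369, 972.7 and 1010 in ICAM1-negative cells. The fractions did not overlap, but Cyp51 did not pass (0.65 ± 0.24, adjusted p = 0.0883). It passed with dim intensities lifted to that median (adjusted p = 0.0331), with only probe sets above the median kept (0.0416) and with an intensity trend (0.0293). Its other 2 probe sets did not pass. Cyp20a1, a P450 without a settled substrate, had 1510, 1810 and 1576, against 1872, 2150 and 2208 in ICAM1-negative cells, a difference of -0.35 ± 0.17 that missed the threshold (adjusted p = 0.18).

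Among the steroid hormone families, Cyp11a1, which cleaves the side chain of cholesterol, was called lower on 1 of its 3 probe sets. That probe set had 56.5, 31.2 and 15.5 in ICAM1-positive cells, against 120.6, 112.3 and 119.7 in ICAM1-negative cells (-1.96 ± 0.47, adjusted p = 0.0217, at least 1.22-fold lower), and the other 2 were removed by the filter. The call was lost with dim intensities lifted (-0.28, adjusted p = 0.0905), without litter 2 (0.13) or 3 (0.0768), and without ICAM1-positive array 2 (0.0565) or any single ICAM1-negative array (0.0589 to 0.0651). Cyp11b1, Cyp11b2 and Cyp21a1 of the adrenal cortex lay under the array median on every array and did not pass.

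**Figure D4:**
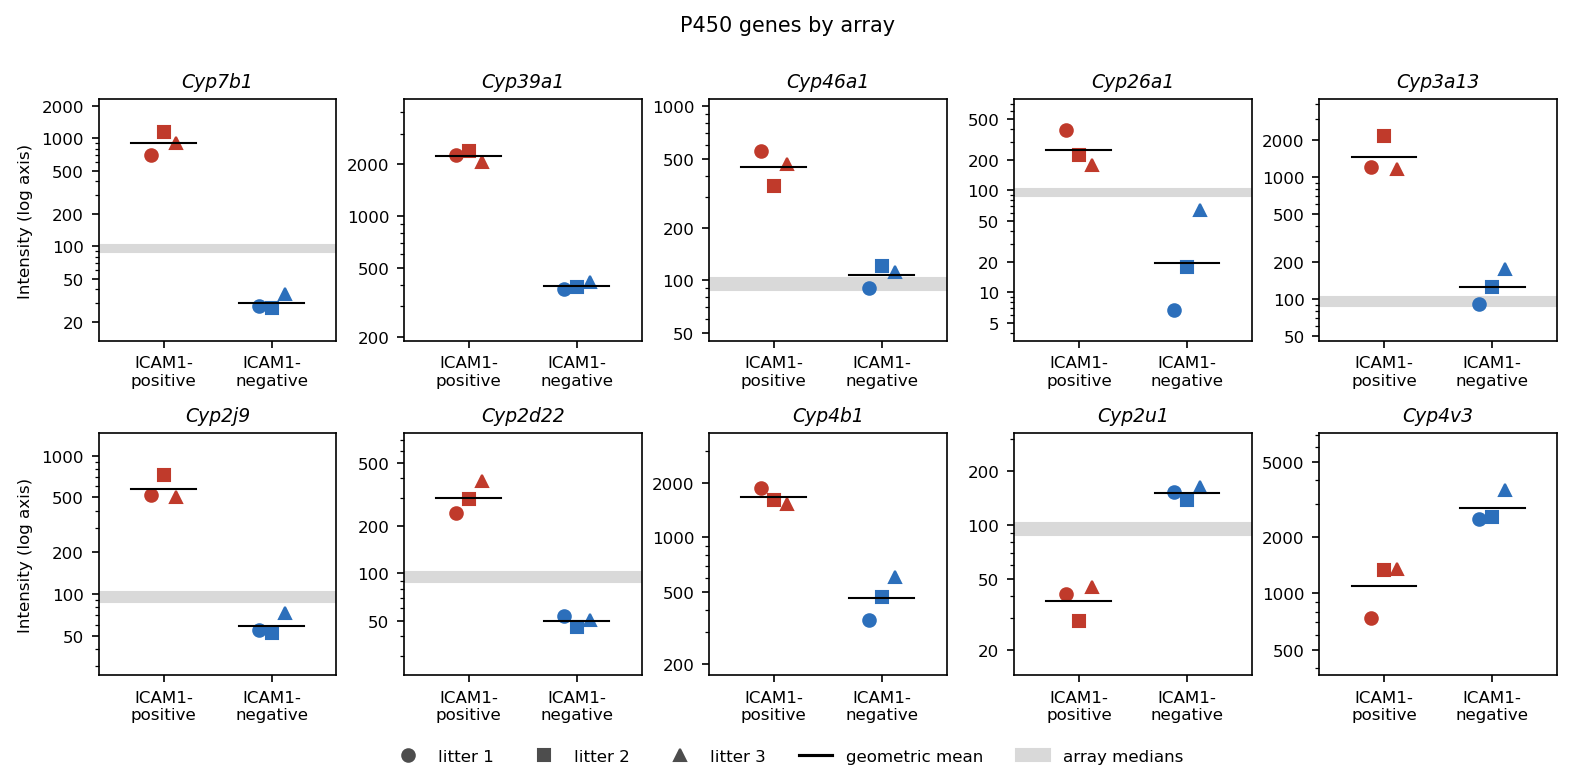
Intensity on each array (log axis) of 8 P450 genes that were higher and 2, Cyp2u1 and Cyp4v3, that were lower in ICAM1-positive cells, with ICAM1-positive arrays at the left of each panel. Symbols mark litters, lines the geometric means and the grey band the range of array medians (87.9 to 102.8); no panel has overlapping fractions, and the dimmer fraction lies under the band for Cyp7b1, Cyp26a1, Cyp2j9, Cyp2d22 and Cyp2u1.

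Genes that serve the P450 enzymes moved in both directions. Of 9 electron donor and related genes tested, 5 were higher (55.6%) and 3 lower (33.3%), beside 20.6% and 20.8% of all genes. Cyb5r3, the main cytochrome b5 reductase gene, had 9536, 9216 and 10189 in ICAM1-positive cells, against 1722, 2097 and 2587 in ICAM1-negative cells (2.19 ± 0.21, adjusted p = 0.000703). Its relative Cyb5r1 went the other way, with 793.2, 930.7 and 974.3, against 3377, 3618 and 3826 in ICAM1-negative cells (-2.01 ± 0.17, adjusted p = 0.000521). Cyb5r4 was lower by -1.25 ± 0.15 and the dim Cyb5r2 by -1.99 ± 0.54, which lost its call with dim intensities lifted (adjusted p = 0.502), without litter 1 (0.149) or 3 (0.13), and without any single array other than ICAM1-positive array 2 (0.0511 to 0.093). The ferredoxin gene Fdx1, which feeds the mitochondrial P450 enzymes, was higher by 1.20 ± 0.16, and the heme-binding P450 partners Pgrmc1 and Pgrmc2 by 0.92 ± 0.17 and 1.33 ± 0.19; Pgrmc1 lost its call without litter 1 (adjusted p = 0.101) or 3 (0.086). Cytochrome b5 itself (Cyb5a) averaged 10520 ± 2130 in ICAM1-positive cells and 5858 ± 1190 in ICAM1-negative cells (0.85 ± 0.25, adjusted p = 0.0435). Its call was lost with quantile normalization (adjusted p = 0.0512), with arrays centred on the median (0.0795), with no filter (0.0596), and without any litter or single array (0.0549 to 0.169). Without litter 1 or litter 3, 3 of these genes remained called higher, and the share of all genes called in those fits was not computed. The P450 reductase gene Por was not analysed here.

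Of 9 heme genes tested, 2 were higher (22.2%) and 3 lower (33.3%), beside 20.6% and 20.8% of all genes. Alas1, the first enzyme of heme synthesis outside red cells, averaged 3040 ± 383 in ICAM1-positive cells and 1355 ± 246 in ICAM1-negative cells (1.17 ± 0.21, adjusted p = 0.00749). Alad, the next enzyme, was higher by 1.38 ± 0.26, while the later enzymes Uros and Ppox were lower by -1.24 ± 0.21 and -0.68 ± 0.20. The heme oxygenase gene Hmox2, the constitutive form, had 1582, 1558 and 1625, against 4616, 5331 and 5430 in ICAM1-negative cells (-1.69 ± 0.16, adjusted p = 0.000745). The inducible Hmox1 had 319.1, 93.4 and 375.9 against 106.3, 67.1 and 157.8 and did not pass (1.11 ± 0.62, adjusted p = 0.224); it passed without litter 2 (1.42, adjusted p = 0.0425) and without ICAM1-positive array 2 (1.74, adjusted p = 0.032). Alas1 lost its call without litter 1 (adjusted p = 0.0694) or 2 (0.0593), Alad without litter 2 (0.0675) or 3 (0.0655), and Uros without litter 1 (0.0674) or 3 (0.0625). Ppox lost its call with no filter (0.0604) and without any litter or single array (0.0581 to 0.2).

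Of 16 tested regulators of P450 genes 7 were higher (43.8%) and 0 lower, beside 20.6% and 20.8% of all genes. Ppara, the fatty acid receptor that controls family 4 genes in liver, had 632.8, 852.1 and 598.9 in ICAM1-positive cells, against 4.3, 55.1 and 31.3 in ICAM1-negative cells (5.14 ± 0.94, at least 7.11-fold higher, adjusted p = 0.00807; 0.0624 without litter 3). The retinoic acid receptor gene Rarb had 817.6, 791.4 and 722.6, against 210.6, 179.8 and 233.7 in ICAM1-negative cells (1.91 ± 0.18, adjusted p = 0.000702). Rara was also called higher, with all values under the array median (1.95 ± 0.40), and lost its call with dim intensities lifted (adjusted p = 0.996) and without litter 1 (0.108) or 2 (0.0593). Rarg did not pass (-0.28 ± 0.29). Tiparp, a target of the aryl hydrocarbon receptor, had 6700, 6229 and 5375, against 1733, 1935 and 1209 in ICAM1-negative cells (1.93 ± 0.24, adjusted p = 0.00182). The receptor gene Ahr itself averaged 1246 ± 75 in ICAM1-positive cells and 944.4 ± 44.9 in ICAM1-negative cells, and missed the threshold (0.40 ± 0.16, adjusted p = 0.105). Ahr passed with dim intensities lifted (adjusted p = 0.0209), with only probe sets above the median kept (0.0476) and with an intensity trend (0.0492). The other genes called higher were the partner receptor Rxra (1.03 ± 0.21), the oxidative stress factor Nfe2l2 (0.65 ± 0.16) and the Ahr partner Arnt (0.64 ± 0.18). With the probe sets of a gene averaged, the calls of Rxra (adjusted p = 0.342), Nfe2l2 (0.0909) and Arnt (0.374) were lost. Without litter 1 or 3 these 3 genes lost their calls too (adjusted p = 0.0627 to 0.226). Nfe2l2 also lost its call without litter 2 (0.0793) and without any single array (0.0516 to 0.0795), and Arnt with no filter (0.061), without litter 2 (0.077) and without any single array other than ICAM1-positive array 2 (0.0863 to 0.126). The count of regulators higher was 3 without litter 1 or litter 3 and 4 without litter 2. The share of all genes called in those smaller fits was not computed.

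**Figure D5:**
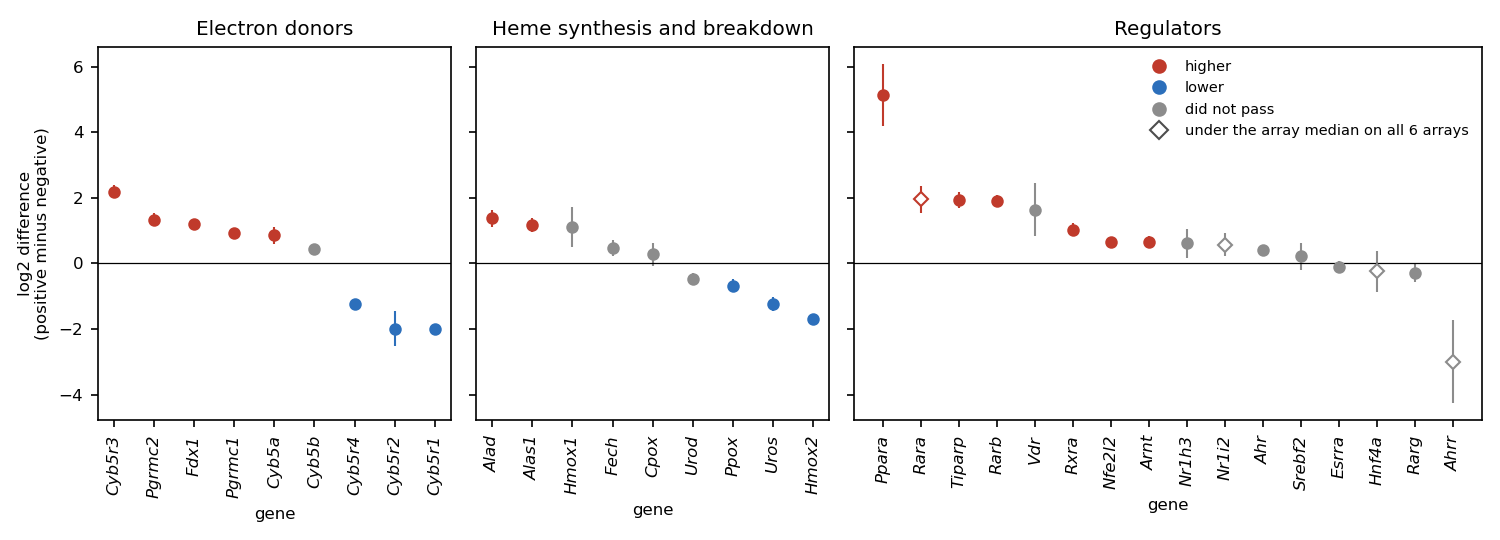
Log2 difference (ICAM1-positive minus ICAM1-negative, with the standard error) of electron donor and related genes, of genes of heme synthesis and breakdown, and of regulators of P450 genes. Red and blue mark genes called higher and lower, and open diamonds genes under the array median on all 6 arrays. Of the electron donor and related genes 5 are higher and 3 lower, and 7 regulators are higher and 0 lower.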

How the data were processed

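RNA of 3 ICAM1-positive and 3 ICAM1-negative sorts was extracted with TRIzol, amplified in 2 rounds and hybridised to Affymetrix mouse arrays, per the labels' protocols. The authors deposited linear intensities, 1 value per probe set and array. GCRMA is named in the series text and in the processing notes of the submitters, but its output is usually on a log2 scale. The deposited values are linear, with means (trimmed by 2% at each end, controls left out) of 496 to 497 on the 6 arrays; software and background correction: not given in the sources used here. Scan batches were not tested.

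Without the 64 control probe sets, intensities were log2 transformed, and probe sets above 4 on that scale on at least 3 arrays were kept (38694). Genes came from the platform table; Entrez IDs of all 71 P450 genes matched RefSeq (GRCm38.p6). A gene was represented by its kept probe set with the highest mean over the 6 arrays. Sorts were compared with limma 3.58.1 in R 4.3.3 (lmFit, eBayes, tested on simulated data), without a block. P-values rest on the spread between litters. The series text states that each litter gave both sorts, so same-numbered arrays are paired; their deviations from the sort means correlated at 0.127, 0.199 and 0.0812. A blocked p stands beside a result where it changed the call. Where all arrays of the dimmer sort lay under the array median, the fold is given as at least the brighter sort's mean over those medians; this bound is an estimate without an error. Array number and signal over background limit the precision.

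The members and gene lists were chosen with earlier results of these data known. Values on every array are given for P450 genes known from olfactory epithelium, the 8 greatest rises and the 8 greatest falls among called genes, of which there were 6. Of the partner lists, the 3 greatest differences in each direction per list and a few fixed genes are named.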

Additional observations from a re-analysis of the deposited data

How the results depend on the processing

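With dim intensities lifted to the median of their array, 4 P450 probe sets and 2 P450 genes were lower, 1 of them in family 2. Of all genes, 23.2% were lower in that setting. With only probe sets over the array median on 3 arrays kept, 3 P450 genes were lower, 1 of them in family 2; that setting tests fewer genes. With an intensity trend, 1 gene of family 4 was higher and 2 were lower, and with a pseudocount of 16, 2 were lower; the cause was not tested. Leaving out 1 litter or 1 array gave 8 to 11 P450 genes higher and 3 to 7 lower, 10 to 15 probe sets higher and 5 to 9 lower, and in family 4, 1 to 2 higher and 0 to 2 lower. The counts were 3 to 4 electron donor and related genes higher and 2 to 3 lower. For heme genes they were 1 to 3 higher and 1 to 2 lower, and for regulators 3 to 6 higher and 0 to 1 lower. Shares over all genes were not computed for fits with litters or arrays left out, so these ranges have no background beside them. Nor were shares computed with only probe sets over the array median kept, with an intensity trend or with the pseudocount. With litter as a replicate block, 10 P450 genes were higher and 5 lower, beside 21.3% and 22.2% of all genes. Cyp26a1 (adjusted p = 0.0609) and Cyp2c23 (0.0598) lost their calls, and the call of no other P450 gene changed. No gene with a call reversed its direction in these settings. Among the P450 genes called or given on every array, calls were lost in 46 and gained in 5 gene and setting pairs and were as reported in 392; Cyp4f16, outside these, gained a call with dim intensities lifted (adjusted p = 0.0168). Values under the array median limit what can be read from dim genes, 30 of the 58.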

Other observations

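Other P450 clusters also held members with different calls, and many of their tested genes were dim. In the Cyp2d cluster on chromosome 15, Cyp2d22 lies at one end in the RefSeq order and was the only tested gene called (2.61). Cyp2d9 (-0.98 ± 1.14), Cyp2d34 (-0.62 ± 0.92) and Cyp2d40 (1.90 ± 1.29) lay under the array median on every array and did not pass. Cyp2d10, Cyp2d12 and Cyp2d26 were not tested. In the Cyp2c cluster on chromosome 19, Cyp2c65 (-1.55) and Cyp2c29 (1.53) were called in opposite directions with a single coding gene, Cyp2c66, between them, both near background. In the Cyp4 cluster on chromosome 4, Cyp4b1 (1.84) and the dim Cyp4a14 (1.30) were called higher. Cyp4x1 at the other end stood at -2.69 without passing, and at -0.24 with dim intensities lifted.

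The other probe sets shared by several P450 genes were dim. The one listing Cyp4a31 and Cyp4a10 averaged 27.33 ± 7.11 in ICAM1-positive cells and 19 ± 7.3 in ICAM1-negative cells (0.56 ± 0.37), and the one listing Cyp4f37 and Cyp4f16 averaged 70.53 ± 23.6 in ICAM1-positive cells and 59.43 ± 14.5 in ICAM1-negative cells (0.22 ± 0.30). Neither passed.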
